A study of Rattus norvegicus with 9 samples.

Results

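The genes described here are 9 genes that handle calcium in the vestibular sensory epithelium of the rat: the 4 plasma membrane calcium pumps (PMCAs) Atp2b1, Atp2b2, Atp2b3 and Atp2b4, the sodium calcium exchanger Slc8a1, and the EF-hand buffers Ocm, Calb1, Calb2 and Pvalb. They were chosen by symbol among the 32883 genes of the count table. Of them, 8 were found under these symbols, and Ocm was found as Ocm2, which RefSeq gives as a synonym of the rat Ocm gene. All 9 passed the filter on low counts that left 15517 genes. The libraries came from male Long-Evans rats given 3,3′-iminodipropionitrile (IDPN), a compound that damages hair cells (HCs), at 20 mM in the drinking water for 3 weeks (IDPN-3wk) or 7 weeks (IDPN-7wk), and from rats given plain water (Control). Each library held the pooled cristae and utricles of 1 rat, and each group had 3. The single Control group, with animals killed at either time, served both exposures, so the comparisons with it share their reference. No age was given for these rats in the sources used here.

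HCs let calcium in through the transduction channels of the stereocilia and through the channels at their synapses, and must remove it again. PMCAs push calcium out of the cell at the cost of ATP, exchangers of the Slc8 family use the sodium gradient for the same purpose, and EF-hand buffers bind calcium in the cytosol. In inner ear HCs, PMCA2, the product of Atp2b2, is the pump of the stereocilia, and its loss in mice causes deafness and imbalance. In the rat vestibule, the study places PMCA2 in type I and not in type II HCs. Oncomodulin, the product of Ocm, is found in HCs of the striola and central zones, and the study describes it in some HCs of both types. Calretinin, the product of Calb2, is found in type II HCs and in a class of calyx afferents.

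The stretches of DNA just before the start of Atp2b2, Ocm and Atp2b1 are shown because these were the pump with the largest decrease, a buffer that was lower in all IDPN libraries, and the pump with the most reads. Such a stretch was matched in RefSeq for 6 of the 9 genes (not Atp2b3, Calb1 and Calb2). The 250 bases before the start are given 5′ to 3′ from GRCr8, a later build than that of the counts, and capitals mark the 6-base E-box CANNTG, read by basic helix-loop-helix factors.
Atp2b2 (chr4:148763654-148763903, minus strand): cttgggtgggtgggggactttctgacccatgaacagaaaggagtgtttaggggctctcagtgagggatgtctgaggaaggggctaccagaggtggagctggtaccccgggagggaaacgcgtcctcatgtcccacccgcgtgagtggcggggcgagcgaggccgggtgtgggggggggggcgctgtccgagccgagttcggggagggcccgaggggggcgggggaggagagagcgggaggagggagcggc
Ocm (chr12:15700376-15700625, plus strand): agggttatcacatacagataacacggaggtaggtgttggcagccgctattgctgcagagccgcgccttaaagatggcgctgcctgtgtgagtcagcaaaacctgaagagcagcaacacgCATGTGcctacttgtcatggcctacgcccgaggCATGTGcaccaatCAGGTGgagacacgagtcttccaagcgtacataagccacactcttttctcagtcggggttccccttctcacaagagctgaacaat
Atp2b1 (chr7:35622211-35622460, plus strand): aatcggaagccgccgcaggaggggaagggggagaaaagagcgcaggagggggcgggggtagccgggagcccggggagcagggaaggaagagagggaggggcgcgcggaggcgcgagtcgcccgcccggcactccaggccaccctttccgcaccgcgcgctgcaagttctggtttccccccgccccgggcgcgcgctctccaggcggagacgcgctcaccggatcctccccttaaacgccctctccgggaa
The Ocm stretch held 3 matches to CANNTG and the Atp2b1 and Atp2b2 stretches held 0, and the motif, which is its own complement and includes CAGCTG, occurs in 65.5% of the 33469 rat stretches of the same length. The GC box GGGCGG, sought on both strands, occurred 3 times before Atp2b1, 1 time before Atp2b2 and 0 times before Ocm, and occurs in 30.5% of all stretches. GC content was 72.8% for Atp2b1, 69.2% for Atp2b2 and 53.2% for Ocm, against a median of 51.2%. Neither set of letters was found before all 3 genes, and a start used in HCs may lie elsewhere.

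Library totals ran from 31100118 to 46018385 estimated counts. At equal depth, 3 libraries (replicate 3 of Control, replicates 1 and 2 of IDPN-3wk) showed 15387 to 15498 genes detected, against 16834 to 17312 in the other 6. The sample names begin with a code of unstated meaning, which was the same in all 3 Control rats, in 2 of the IDPN-3wk rats and in 2 of the IDPN-7wk rats, with a different code in each group, and the remaining IDPN-3wk and IDPN-7wk rats (replicate 1 of each) shared another. What this code marks and the exposure therefore cannot be told apart. Levels are CPM, the counts relative to the TMM-adjusted total of the library, and a floor of 3 counts lay at 0.0611 to 0.101 CPM, for counting error only. Markers of HCs were present in every library, and the summed level of 8 general HC markers was 1831 to 1960 CPM in Control, 1044 to 1307 in IDPN-3wk and 989 to 1161 in IDPN-7wk. The sum of 5 type I HC markers was 5908 to 6445, 2848 to 3457 and 1480 to 1806 CPM in the same order, and that of 2 type II HC markers was 342 to 374, 286 to 347 and 363 to 446 CPM. Most of the type I sum was Spp1 and most of the type II sum was Anxa4. The other type I markers, Bmp2, Bdnf, Kcnab1 and Adam11, are among the genes the study listed as lower in all its comparisons. Those comparisons include these libraries, so the fall of these markers is not independent of that list. The list also holds Atp2b2 and Ocm (as Ocm/Ocm2), to which the same applies. A gene was called where edgeR's quasi-likelihood test gave an adjusted p under 0.05 and the fold change was above 1.5.

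Of the 9 genes, 2 fell at 3 weeks (Atp2b2 and Calb2) and 3 fell at 7 weeks (Atp2b2, Calb2 and Ocm), and none rose at either time. Of all genes tested, 1.21% were called lower and 0.438% higher at 3 weeks, and 3.13% and 2% at 7 weeks. The unadjusted p was under 0.05 in 4 of the 9 genes at 3 weeks and in 5 at 7 weeks, against 15.8% and 19.3% of all genes. The median log2 fold change of the 9 genes was -0.58 at 3 weeks and -0.64 at 7 weeks, against -0.00047 and 0.0097 for all genes tested. All IDPN libraries lay below all Control libraries for 4 of the 9 genes at 3 weeks (Atp2b2, Ocm, Calb2, Pvalb) and for 5 at 7 weeks (the same 4 and Atp2b1), where 10.9% and 17.1% of all genes did so. None of the 9 lay above all Control libraries, as 8.78% and 17.2% of all genes did. Between IDPN-7wk and IDPN-3wk 0 of the 9 genes were called, by edgeR or by DESeq2, against 0.483% of all genes (0.135% lower and 0.348% higher). The unadjusted p was under 0.05 in 1 of the 9, Atp2b1, against 13.8% of all genes. It was also the single gene whose IDPN-7wk libraries lay below all IDPN-3wk libraries, which 8.92% of all genes did, and 0 lay above, against 12.1%.

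**Figure D1:**
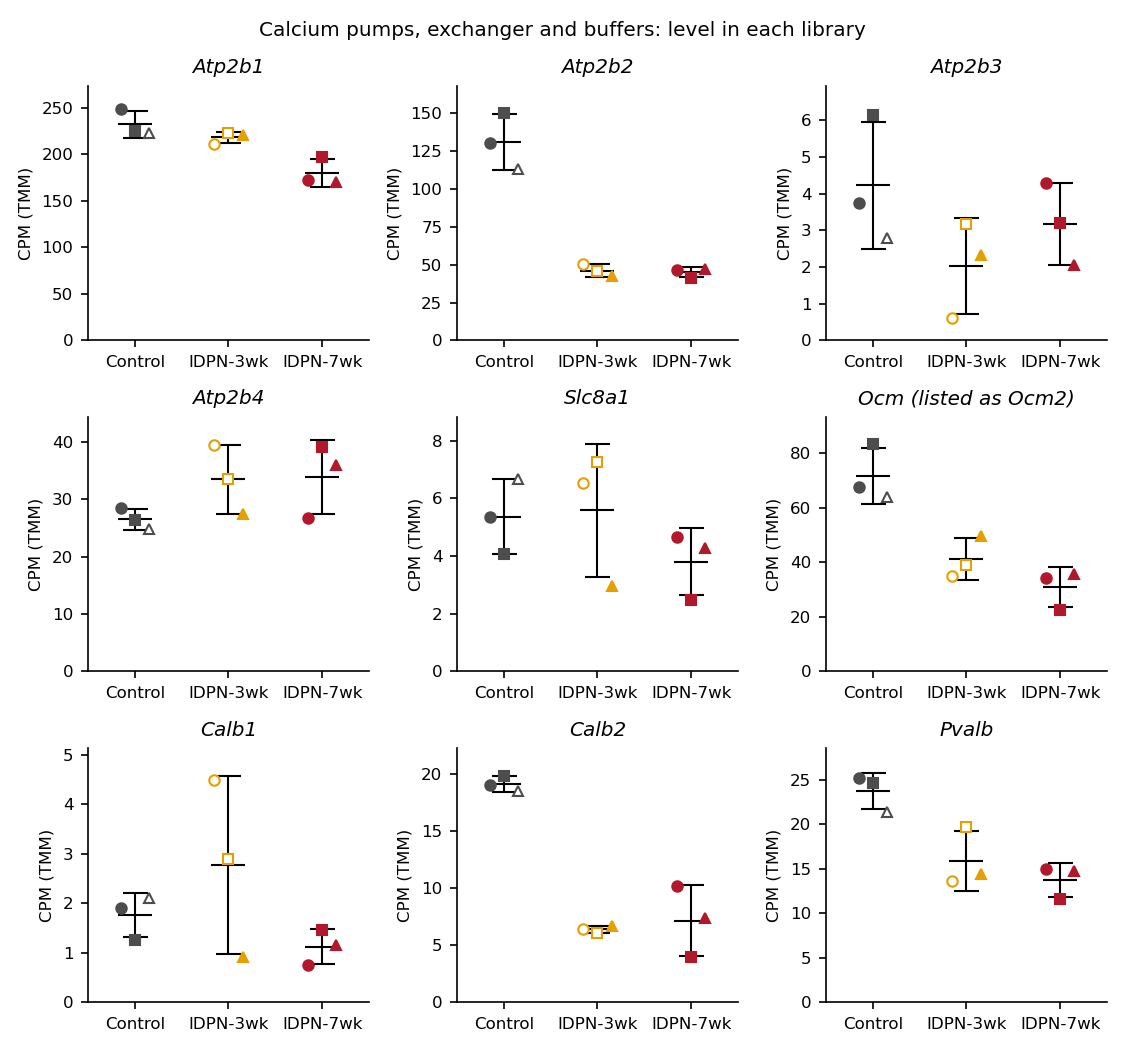
Level of each gene (CPM, TMM scaled, linear axis from 0) in each library by group. Circles, squares and triangles are replicates 1, 2 and 3, open symbols are the 3 libraries with fewer genes detected, and bars are the mean ± SD of 3 rats. All IDPN points for Atp2b2, Ocm, Calb2 and Pvalb lie below all Control points, while the Atp2b4, Slc8a1, Calb1 and Atp2b3 groups overlap.

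The pump with the largest decrease was Atp2b2 (ENSRNOG00000030269). Its level was 130, 150 and 113 CPM in the Control libraries, 50.4, 45.5 and 42.3 CPM in the IDPN-3wk libraries, and 46.2, 41.2 and 47.3 CPM in the IDPN-7wk libraries. The highest IDPN library, at 50.4 CPM, was far below the lowest Control library, at 113 CPM. The level fell by 64.8% at 3 weeks, with a log2 fold change of -1.51 ± 0.13 (SE, n = 3 per group, 95% interval -1.80 to -1.21; edgeR adjusted p = 0.000758). At 7 weeks it fell by 65.7%, with a log2 fold change of -1.54 ± 0.13 (95% interval -1.84 to -1.25; edgeR adjusted p = 0.000182). The IDPN groups overlapped, and the difference between 7 and 3 weeks was -0.04 on the log2 scale (95% interval -0.33 to 0.25; edgeR adjusted p = 0.941). In whole tissue, fewer cells of a type and less RNA per cell cannot be told apart, here and for every gene below. Within the libraries with more genes detected the 3-week difference was -1.72, and within those with fewer it was -1.24. Here and for the genes below, the former set 1 IDPN-3wk library against 2 Control libraries, and the latter 2 against 1.

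Atp2b1 (ENSRNOG00000004026) encodes PMCA1, the pump present in most cell types. It was measured at 249, 225 and 222 CPM in Control, 211, 223 and 220.1 CPM in IDPN-3wk, and 172, 197 and 170.1 CPM in IDPN-7wk. At 3 weeks the groups overlapped (log2 fold change -0.09 ± 0.09, SE, 95% interval -0.29 to 0.11; edgeR adjusted p = 0.687). At 7 weeks all libraries lay below those of both other groups. The log2 fold change was then -0.37 ± 0.09 against Control (95% interval -0.57 to -0.17; edgeR adjusted p = 0.0377), a fold of 0.774 that did not reach the threshold of 1.5, so the gene was not called. Against IDPN-3wk it was -0.28, with an edgeR adjusted p of 0.211. Markers of other cells also moved. The summed level of 6 Schwann cell markers was 9486 to 11930 CPM in Control, 7435 to 10100 in IDPN-3wk and 3210 to 6772 in IDPN-7wk. That of 5 supporting cell markers was 5013 to 5713, 3706 to 4814 and 3668 to 3805 CPM in the same order. Their part in the level of Atp2b1 was not tested.

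Atp2b4 (ENSRNOG00000003031) encodes PMCA4, the main calcium pump of red blood cells, which is also found in other tissues. It was at 28.4, 26.4 and 24.8 CPM in Control, 39.5, 33.6 and 27.4 CPM in IDPN-3wk, and 26.7, 39.1 and 35.9 CPM in IDPN-7wk. In each IDPN group 2 libraries were above all Control libraries and 1 lay within their range. The gene was not called, with log2 fold changes of 0.34 ± 0.19 at 3 weeks (SE, 95% interval -0.08 to 0.75; edgeR adjusted p = 0.424) and 0.35 ± 0.19 at 7 weeks (95% interval -0.06 to 0.77; edgeR adjusted p = 0.351). A decrease of the size seen for Atp2b2 lay outside both intervals. The 3-week difference was 0.55 within the libraries with fewer genes detected and 0.0018 within those with more. The sum of 2 red blood cell markers was 68.5 to 80.8 CPM in Control, 104 to 128 CPM in IDPN-3wk and 56.6 to 89.9 CPM in IDPN-7wk, and its part in Atp2b4 was not tested.

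Atp2b3 (ENSRNOG00000061304), the gene of the neuronal pump PMCA3, had few reads, 22 to 210 counts per library. Its level was 3.75, 6.14 and 2.79 CPM in Control, 0.599, 3.16 and 2.34 CPM in IDPN-3wk, and 4.28, 3.19 and 2.05 CPM in IDPN-7wk. The groups overlapped, and IDPN-3wk replicate 1 was the lowest of all. The 95% intervals were wide, from -2.45 to 0.34 around a log2 fold change of -1.06 at 3 weeks and from -1.78 to 0.96 around -0.41 at 7 weeks (edgeR adjusted p = 0.450 and 0.801), so that a change as large as that of Atp2b2 lay inside both. Slc8a1 (ENSRNOG00000008479), the exchanger NCX1 of heart and many other tissues, was at 5.37, 4.07 and 6.67 CPM in Control, 6.54, 7.27 and 2.95 CPM in IDPN-3wk, and 4.66, 2.49 and 4.28 CPM in IDPN-7wk. Its groups overlapped as well, with log2 fold changes of 0.06 ± 0.43 and -0.49 ± 0.43 (SE, edgeR adjusted p = 0.973 and 0.611). The 3-week value was -0.65 within the libraries with more genes detected and 0.05 within the others.

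Ocm (ENSRNOG00000001031), which encodes the buffer oncomodulin, was at 67.7, 83.4 and 64.2 CPM in Control, 35.2, 39.0 and 49.9 CPM in IDPN-3wk, and 34.4, 22.5 and 35.8 CPM in IDPN-7wk. All 6 IDPN libraries were below all 3 Control libraries, and the IDPN groups overlapped. At 7 weeks Ocm fell by 57.0%, with a log2 fold change of -1.22 ± 0.21 (SE, n = 3 per group, 95% interval -1.68 to -0.76; edgeR adjusted p = 0.00729). At 3 weeks the log2 fold change was -0.80 ± 0.21 (95% interval -1.25 to -0.34), and its edgeR adjusted p of 0.0892 did not pass, while DESeq2 called it (adjusted p = 0.00862). The study, which used DESeq2, listed this gene as lower in all its comparisons. The direct difference between 7 and 3 weeks was -0.42 ± 0.20, with an edgeR adjusted p of 0.405, so a difference between the times was not shown.

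Calb2 (ENSRNOG00000016977), the gene of calretinin, was at 19.0, 19.8 and 18.4 CPM in Control, 6.40, 6.09 and 6.67 CPM in IDPN-3wk, and 10.2, 3.93 and 7.37 CPM in IDPN-7wk. The Control and IDPN-3wk libraries were each tightly grouped and far apart, and the IDPN-7wk libraries were more spread but still below Control. The level fell by 66.5% at 3 weeks (log2 fold change -1.58 ± 0.31, SE, 95% interval -2.28 to -0.88; edgeR adjusted p = 0.0353) and by 62.5% at 7 weeks (-1.41 ± 0.31; 95% interval -2.11 to -0.72; edgeR adjusted p = 0.0250). The 3-week values within the library sets each had 1 library on 1 side. With that limit, the size held within the libraries with fewer and with more genes detected, at -1.55 and -1.53. The call did not: with library set as a covariate the 3-week adjusted p was 0.0660, and leaving out any Control or IDPN-3wk library, or IDPN-7wk replicate 3, gave 0.0564 to 0.120. At 7 weeks the call was lost without Control replicate 1, 2 or 3 (edgeR adjusted p = 0.0788, 0.0828 and 0.0586) or IDPN-7wk replicate 3 (0.0917). The 2 type II HC markers, Anxa4 and Mapt, were not called at either time. Of 7 afferent neuron markers, with a sum of 80.3 to 106 CPM in Control, 86.2 to 98.0 in IDPN-3wk and 88.0 to 106 in IDPN-7wk, members moved both ways. Nefm, a neurofilament gene, was lower in all IDPN-3wk than in all Control libraries (28.6 ± 3.36 and 15.9 ± 1.43 CPM, SD, n = 3, edgeR adjusted p = 0.0708), while Sncg, the gene of a neuronal synuclein, rose at 7 weeks from 20.3 ± 4.28 to 34.5 ± 3.12 CPM (edgeR adjusted p = 0.0359). The part of these cells in the level of Calb2 was not tested.

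Pvalb (ENSRNOG00000006471) encodes parvalbumin, a buffer of HCs, of fast-spiking neurons and of fast skeletal muscle. It was at 25.2, 24.6 and 21.4 CPM in Control, 13.6, 19.8 and 14.4 CPM in IDPN-3wk, and 14.99, 11.6 and 14.8 CPM in IDPN-7wk. All IDPN libraries were below all Control libraries, with IDPN-3wk replicate 2 the nearest to them. The gene was not called, with log2 fold changes of -0.58 ± 0.20 at 3 weeks (SE, 95% interval -1.03 to -0.12; edgeR adjusted p = 0.199) and -0.78 ± 0.20 at 7 weeks (95% interval -1.24 to -0.33; edgeR adjusted p = 0.0513). With DESeq2 the 7-week adjusted p was 0.00655. Skeletal muscle markers moved in both directions. Their sum went from 13.1 to 37.0 CPM in Control to 49.9 to 65.5 CPM in IDPN-3wk and 148 to 166 CPM in IDPN-7wk. Of its 8 markers 7 were in the table, most of the sum in the IDPN libraries was Myh4, a fast muscle myosin, Acta1 was at 0 in all Control libraries, Ckm was at 0 in all IDPN libraries and Tnnt3 and Mb in all IDPN-3wk libraries. Tnnc2, the troponin C gene of fast muscle, went the same way as Pvalb, from 17.3 ± 4.35 CPM in Control (SD, n = 3) to 10.4 ± 0.212 at 3 weeks and 4.16 ± 1.11 at 7 weeks (edgeR adjusted p = 0.232 and 0.00269). The part of muscle in the level of Pvalb was not tested. Calb1 (ENSRNOG00000007456), the gene of calbindin-D28k, had 30 to 165 counts per library, at 1.91, 1.25 and 2.11 CPM in Control, 4.50, 2.90 and 0.922 CPM in IDPN-3wk, and 0.753, 1.46 and 1.16 CPM in IDPN-7wk. Its groups overlapped, and the highest values were in the IDPN-3wk libraries with fewer genes detected. The log2 fold changes were 0.65 ± 0.66 at 3 weeks and -0.64 ± 0.67 at 7 weeks (SE, edgeR adjusted p = 0.694 and 0.689), and the 3-week value was -0.72 within the libraries with more genes detected.

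**Figure D2:**
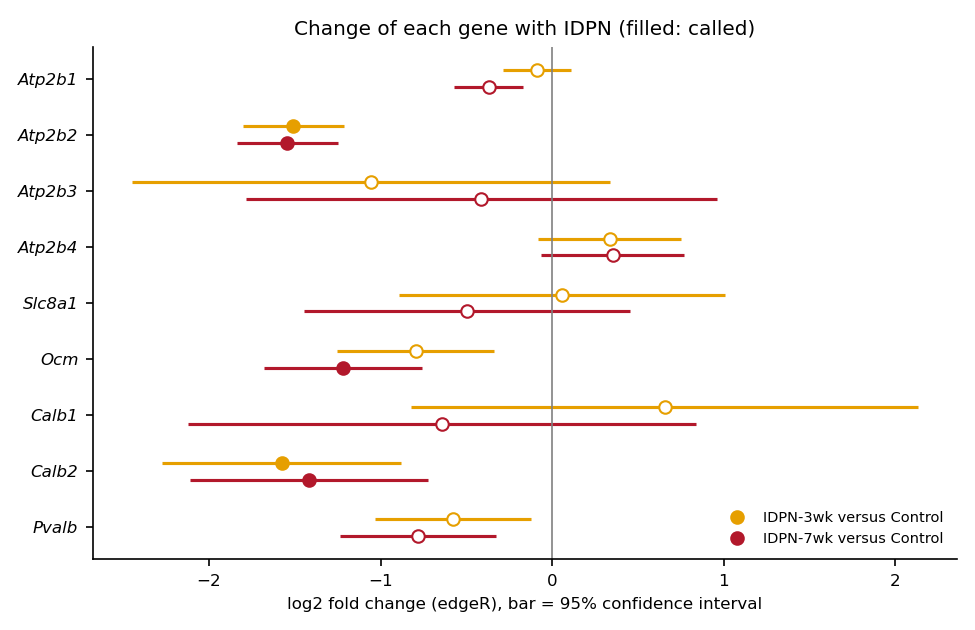
Log2 fold change of each gene at 3 weeks (upper, orange) and 7 weeks (lower, red) against Control, from edgeR, with bars for the 95% confidence interval. Filled points are called genes: Atp2b2 and Calb2 at both times and Ocm at 7 weeks. The intervals of Atp2b3, Slc8a1 and Calb1 are the widest and span 0.

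To set the 4 pumps against each other, the counts of each were expressed as a percentage of the counts of all 4 in the same library. These are shares of reads, which depend on transcript length, so they compare groups and not pumps. The share of Atp2b2 was 31.6%, 36.8% and 31.1% in the Control libraries, 16.7%, 14.9% and 14.5% in IDPN-3wk, and 18.5%, 14.7% and 18.5% in IDPN-7wk. Atp2b1 made up 59.0% ± 3.28 of the reads in Control (SD, n = 3), 72.8% ± 2.65 in IDPN-3wk and 68.6% ± 1.83 in IDPN-7wk. The share of Atp2b4 was 6.74% ± 0.245, 11.2% ± 1.85 and 12.9% ± 1.90, and that of Atp2b3 was 1.06% ± 0.391, 0.678% ± 0.432 and 1.22% ± 0.461. The shares of a library have a fixed sum, so a lower share of Atp2b2 by itself raises the others. The mean level of Atp2b1 did not rise with its share (232 CPM in Control, 218 at 3 weeks, 180 at 7 weeks). The level of Atp2b4 was not called at either time. For the shares of Atp2b1, Atp2b2 and Atp2b4, which are therefore not separate results, no Control library overlapped an IDPN library. The summed level of the pumps did not overlap between the groups either, with 363 to 411 CPM in Control, 292 to 305 CPM in IDPN-3wk and 249 to 280 CPM in IDPN-7wk.

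**Figure D3:**
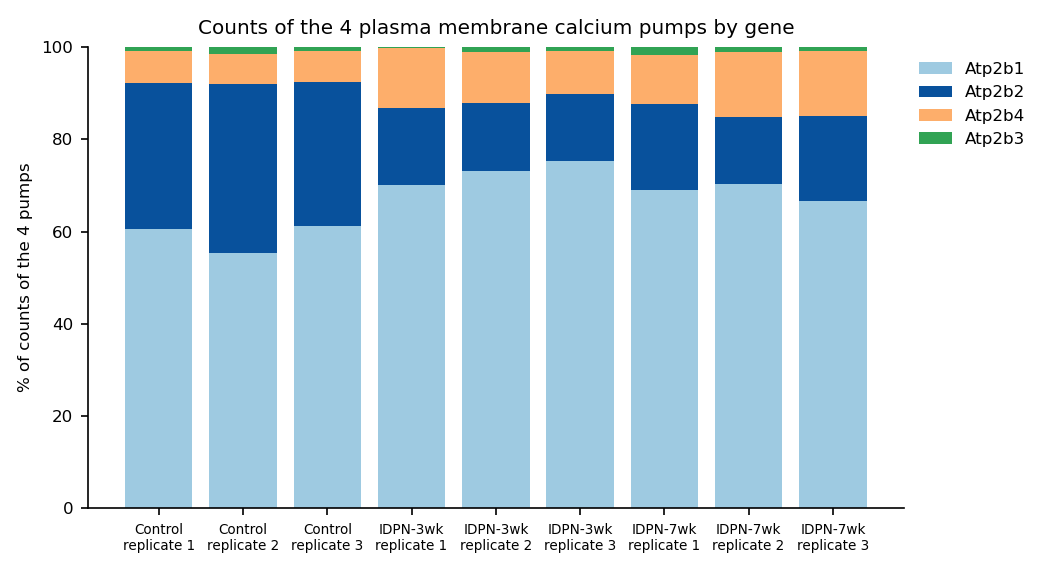
Reads of each of the 4 pump genes as a percentage of the reads of all 4, by library. The Atp2b2 part takes 31.1% to 36.8% in Control and 14.5% to 18.5% in the IDPN libraries, and the Atp2b1 and Atp2b4 parts are correspondingly larger.

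Log2 ratios of 2 genes within a library were then compared between the 6 IDPN and the 3 Control libraries, over 6 pairs of pumps and 16 pairs of a pump and a buffer. With an exact permutation test, two-sided, the smallest p this design allows is 0.0238, and after adjustment over the 22 pairs none passed 0.05. The ratio did not overlap between IDPN and Control in 10 pairs, each with the smallest p and an adjusted p of 0.0524, and 11 pairs had an unadjusted p under 0.05. A pair at the smallest p passes after adjustment only if enough other pairs reach it too. That none passed therefore does not show that the ratios were alike. At each single time 3 libraries met 3, where the smallest exact permutation p is 0.1, and the ratio did not overlap in 13 pairs at 3 weeks and in 12 at 7 weeks. The 22 pairs reuse the same 4 pumps and 4 buffers, so these counts are not of separate results. The share of other gene pairs without overlap was not computed.

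Among the pumps, the ratio of Atp2b2 to Atp2b4 had the largest difference. It was 2.19, 2.51 and 2.18 in Control, 0.35, 0.44 and 0.62 in IDPN-3wk, and 0.79, 0.08 and 0.40 in IDPN-7wk, a mean difference of -1.85 on the log2 scale. The ratio of Atp2b1 to Atp2b2 was higher by 1.29 in IDPN libraries, and that of Atp2b1 to Atp2b4 differed by -0.56. Both were among the 10 pairs without overlap. No ratio with Atp2b3 was without overlap between all IDPN and Control libraries. At a single time, the ratio of Atp2b3 to Atp2b4 did not overlap at 3 weeks (difference -1.57) and that of Atp2b2 to Atp2b3 did not overlap at 7 weeks (difference -1.14), each with the smallest exact permutation p of 0.1.

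Against the buffers, Atp2b1 and Atp2b4 were both higher in IDPN libraries relative to Ocm (by 0.79 and 1.35), to Calb2 (by 1.31 and 1.87) and to Pvalb (by 0.46 and 1.02), all among the 10 pairs without overlap. Atp2b2 showed another pattern. Its ratio to Calb2 was 2.77, 2.92 and 2.61 in Control, 2.96, 2.89 and 2.65 in IDPN-3wk and 2.18, 3.38 and 2.67 in IDPN-7wk, a mean difference of 0.02 (exact permutation p = 0.929). Its ratio to Pvalb differed by -0.83 without overlap. Its ratio to Ocm was 0.94, 0.85 and 0.81 in Control, 0.52, 0.23 and -0.24 in IDPN-3wk and 0.43, 0.87 and 0.40 in IDPN-7wk, a difference of -0.50 with 1 IDPN library in the Control range (exact permutation p = 0.0714).

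Each gene was also set against the mean log2 level of the 8 general HC markers of its library (Myo7a, Pou4f3, Gfi1, Otof, Espn, Tmc1, Myo6 and Pcp4), of which 3 fell at 3 weeks and 5 at 7 weeks. At 3 weeks 7 had a fold change below 0 on the log2 scale. The other, Gfi1, was at 28.0, 27.6 and 54.0 CPM in Control, 64.2, 74.3 and 22.6 in IDPN-3wk and 13.0, 16.9 and 14.7 in IDPN-7wk. This reference is not limited to type I HCs, where the study places PMCA2. Relative to the 8 markers, Atp2b2 was at -0.04, 0.07 and -0.45 in Control, -1.13, -1.29 and -0.94 in IDPN-3wk and -0.71, -0.76 and -0.73 in IDPN-7wk. The mean difference of -0.79 had no overlap. The ratios of Atp2b1 and Atp2b4 to the HC markers were higher in all IDPN libraries, by 0.50 and 1.06. These 3 genes had an exact permutation p of 0.0238, the smallest possible, and an adjusted p of 0.0714 over the 9 genes. As a set the 8 markers were lower in the IDPN libraries, so a gene with an unchanged level has a higher ratio there. The level of Atp2b1 itself did not rise, and Atp2b4 was not called. How many other genes had no overlap against this reference was not computed. Calb2 differed by -0.81 with overlap (exact permutation p = 0.0476, adjusted 0.107). Ocm, Pvalb, Slc8a1, Calb1 and Atp2b3 differed by -0.29, 0.04, 0.47, 0.62 and -0.09, and their groups overlapped. The sign of the Atp2b2, Calb2, Ocm and Atp2b3 differences depended on the reference: against the 5 type I HC markers, all of which fell at both times and some of which the study named from these libraries, they were 0.55, 0.53, 1.05 and 1.25.

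**Figure D4:**
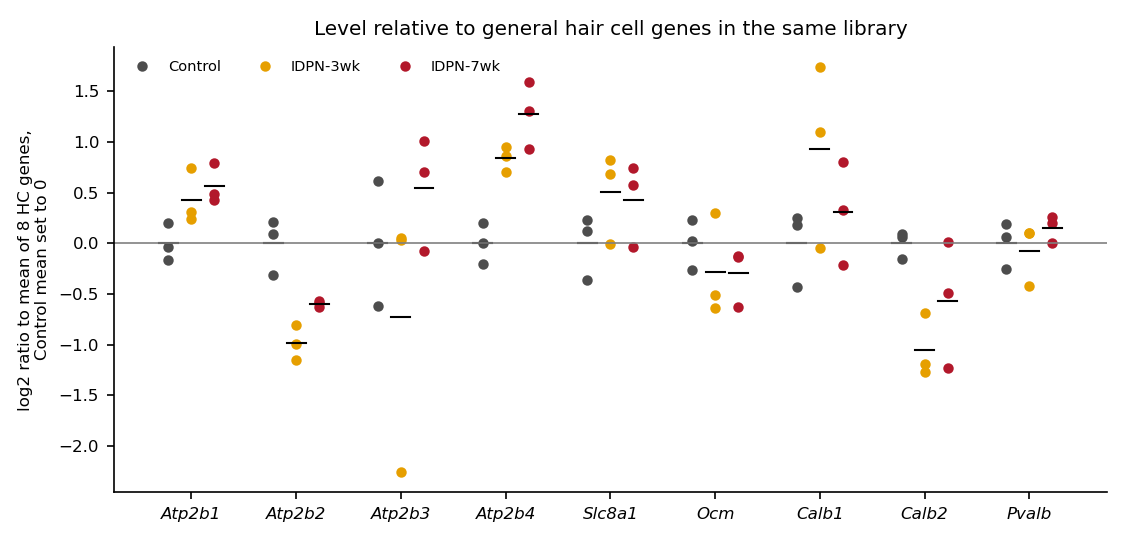
Log2 ratio of each gene to the mean of 8 general hair cell (HC) genes in the same library, with the mean of Control set to 0. Points are libraries and short lines are group means. All IDPN points for Atp2b2 lie below Control and all IDPN points for Atp2b1 and Atp2b4 lie above it, while the other genes overlap.

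Over the 9 libraries, the genes whose log2 level followed Atp2b2 most closely were AABR07060481.1 (Pearson r = 0.989), AC132671.2 (0.988), the HC synaptic calcium sensor Otof (0.988), the ciliary gene Hydin (0.986) and the kallikrein gene Klk13 (0.980). For Ocm they were the chemokine gene Cxcl14 (0.974), the ubiquitin ligase gene Trim37 (0.965), the sulfotransferase gene Gal3st3 (0.965), RGD1308544 (0.962) and the neurotrophin gene Bdnf (0.959). These values describe libraries that share the 3 groups, so genes that differ between Control and IDPN in the same direction tend to have a high r with each other.

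Other genes of calcium handling were taken from 4 lists of 89 genes, of which 85 were in the table and 78 entries were tested. At 3 weeks 1 fell and 1 rose, and at 7 weeks 5 fell and 3 rose, where 1.65% and 5.13% of all genes were called in either direction. Between 7 and 3 weeks edgeR called 0, with 17 of 78 at an unadjusted p under 0.05, against 0.483% and 13.8% of all genes. DESeq2 called 5 of them, and 524 of the 15517 genes. In the list of other pumps and exchangers (12 tested) 1 gene fell at 7 weeks. This was Atp2a3, the SERCA3 pump that loads the endoplasmic reticulum, which went from 178 ± 12.5 to 85.2 ± 10.7 CPM (SD, n = 3; log2 fold change -1.07 ± 0.12, SE, edgeR adjusted p = 0.000878). Its 3-week level was 135 ± 14.4 CPM, with an edgeR adjusted p of 0.138. The housekeeping SERCA gene Atp2a2 was at 70.03 ± 15.8 CPM in Control and 63.6 ± 12.7 CPM in IDPN-7wk (edgeR adjusted p = 0.781). The median log2 fold change of this list was 0.0062 at 3 weeks and -0.58 at 7 weeks.

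PMCAs need a partner glycoprotein, basigin or neuroplastin, to reach the membrane, and are activated by calmodulin. Bsg, the gene of basigin, was at 744 ± 50.7 CPM in Control (SD, n = 3), 952 ± 72.0 in IDPN-3wk and 975.1 ± 53.1 in IDPN-7wk, higher in all 6 IDPN libraries. It was not called, as its 7-week fold of 1.31 (log2 0.39 ± 0.09, SE, edgeR adjusted p = 0.0266) was under the threshold and its 3-week adjusted p was 0.0776. Nptn, the gene of neuroplastin, was at 244 ± 20.0, 251 ± 1.56 and 220.1 ± 13.6 CPM (edgeR adjusted p = 0.868 and 0.414). Among the 11 entries tested in this list, 1 fell at 7 weeks, a calmodulin entry under the symbol Calm2 (ENSRNOG00000030871), from 952 ± 18.9 to 566 ± 40.1 CPM (log2 fold change -0.75 ± 0.08; edgeR adjusted p = 0.000742). The other Calm2 entry (ENSRNOG00000016770) was at 118 ± 3.81 and 106 ± 7.31 CPM and was not called (edgeR adjusted p = 0.449). Calmodulin genes and their copies are much alike, so the split of reads between the entries is uncertain.

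In the list of other EF-hand proteins (25 tested) 1 gene rose at 3 weeks, and 2 fell and 3 rose at 7 weeks. Those that rose were 3 of the 6 S100 genes tested, which encode small EF-hand proteins. Of the other S100 genes, none called, S100a1 was at 111 ± 1.88 CPM in Control, 74.7 ± 20.9 in IDPN-3wk and 91.3 ± 12.5 in IDPN-7wk (SD, n = 3), below Control without overlap at both times (edgeR adjusted p = 0.156 and 0.450). S100b was at 3482 ± 568 CPM in Control and 2492 ± 147 in IDPN-7wk, without overlap, a fold of 0.716 that was under the threshold (edgeR adjusted p = 0.0333). S100a6 was at 44.3 ± 10.2 and 53.2 ± 1.89 CPM (edgeR adjusted p = 0.466). S100a4 went from 7.505 ± 2.37 CPM in Control to 21.0 ± 4.59 at 3 weeks (SD, n = 3; log2 fold change 1.48 ± 0.29, SE, edgeR adjusted p = 0.0328) and 39.1 ± 9.01 at 7 weeks (2.38 ± 0.30; edgeR adjusted p = 0.00137). S100a10, the partner of annexin A2, rose from 23.9 to 49.4 CPM at 7 weeks (edgeR adjusted p = 0.00464), and S100a11 rose from 5.49 to 15.8 CPM (edgeR adjusted p = 0.0157). The summed level of 6 macrophage markers was 51.7 to 94.4 CPM in Control, 39.8 to 114 in IDPN-3wk and 159 to 203 in IDPN-7wk, and its part in the S100 genes was not tested. The genes that fell were Cabp2, a modulator of HC calcium channels, from 226 to 142 CPM (log2 fold change -0.67 ± 0.11; edgeR adjusted p = 0.00709), and Vsnl1, a neuronal calcium sensor, from 3.66 to 0.638 CPM (-2.51 ± 0.60; edgeR adjusted p = 0.0361).

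Among 30 genes of calcium release and storage in the endoplasmic reticulum and mitochondria, 1 fell at each time. This was the ryanodine receptor gene Ryr3, a calcium release channel, at 179 ± 35.1 CPM in Control, 75.8 ± 15.4 in IDPN-3wk and 69.4 ± 12.0 in IDPN-7wk (SD, n = 3). Its log2 fold change was -1.24 ± 0.19 (SE) at 3 weeks and -1.37 ± 0.20 at 7 weeks (edgeR adjusted p = 0.0128 and 0.00307). The median of this list was -0.02 at 3 weeks and -0.08 at 7 weeks, close to the medians of all genes tested.

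**Figure D5:**
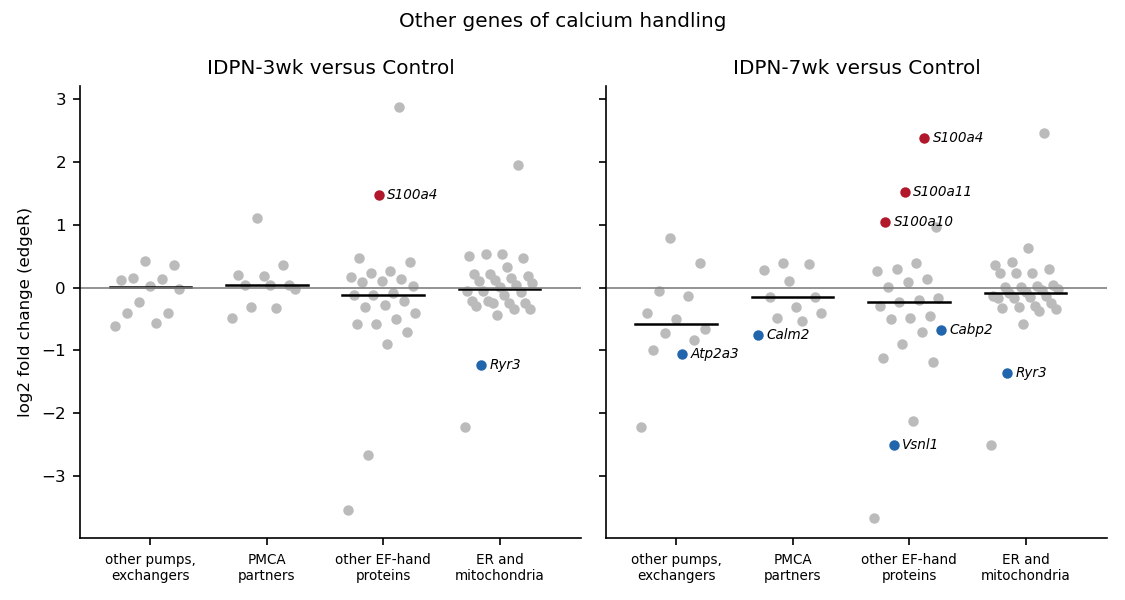
Log2 fold change (edgeR) of the tested genes in 4 lists of other calcium handling genes at 3 weeks (left) and 7 weeks (right) against Control. Named points are called genes, red for higher and blue for lower, grey points are not called, and black lines are list medians. Ryr3 is low in both panels, and S100a4 is high in both.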

How the data were processed

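RNA of the cristae and utricles, pooled per rat, was copied by SMARTseq2, which carries no molecular identifiers. The authors mapped reads to Rnor6.0 with STAR and made expected counts per gene with RSEM (versions 2.5.3a and 1.3.0 in the submitters' processing notes), so the deposited values are estimated counts, given as whole numbers without normalization. Strand was not stated, so reads of overlapping antisense genes cannot be told apart. Each library held at least 31100118 counts.

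Replicate numbers were assigned here. No replicates held like counts (lowest chi-square per gene 19.4). R 4.3.3 with edgeR 4.0.16 (TMM, filterByExpr, robust quasi-likelihood test, 9 libraries in 1 fit of the 3 group means, 6 residual degrees of freedom) gave log2 fold changes, with Benjamini-Hochberg adjustment over 15517 genes. Ratios used log2 CPM with a prior count of 2 and exact permutation tests in scipy 1.17.1. The edgeR p-values rest on the spread between libraries of single rats, pooled over the 3 groups and shared in part across genes. Permutation p-values rest on reassigning the group labels of these libraries. The pipeline was tested on simulated data. Alternatives were DESeq2 1.42.0, RLE scaling, no filter, at least 10 counts, 2 groups only, library set as covariate, fold changes above 2 or any, another prior count, type I HC markers as reference and each library left out. The fits of only the 6 libraries with more genes detected were added after seeing the data, and held 1 IDPN-3wk and 2 Control libraries.

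Named genes were the 9 genes, Bsg, Nptn, every listed gene called, and the 5 genes most correlated with the pump and the buffer of smallest adjusted p at 7 weeks. Atp2a2, the second Calm2 entry, S100a1, S100a6, S100b and the markers named with values were added once their values were known. The 9 genes and all lists were chosen with earlier results of these data known. Levels were not compared between genes, as transcript lengths were not used here.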

Additional observations from a re-analysis of the deposited data

How the results depend on the processing

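Atp2b2 was called lower at both times under all 18 alternatives, with log2 fold changes of -1.73 to -1.40 at 3 weeks (adjusted p up to 0.0064) and -1.64 to -1.43 at 7 weeks (up to 0.0017). Ocm was called at 7 weeks under all 18 (-1.33 to -1.03, adjusted p up to 0.0345). The number of the 9 genes called at 3 weeks was 1 with library set as a covariate and 1 to 2 with each library left out, Calb2 being the gene lost. At 7 weeks it was 2 to 4 with a library left out. Pvalb was called at 7 weeks with at least 10 counts per library (adjusted p = 0.0434), the 2 groups only (0.0245), only the libraries with more genes detected (0.0126), and without IDPN-3wk replicate 1 (0.0403) or 2 (0.0281). The Calb2 3-week log2 fold change was -1.55 with the covariate and -1.54 in the libraries with more genes, where IDPN-3wk had 1 library.

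Of the listed calcium genes, DESeq2 called 4 at 3 weeks and 5 between 7 and 3 weeks, the fit of 2 groups only called 1 at 3 weeks, and no fold threshold gave 13 at 7 weeks. Between 7 and 3 weeks no filter gave 1 and at least 10 counts gave 2. With a library left out the counts were 0 to 3, 6 to 9 and 0 to 1 for the 3 comparisons in this order: 3 weeks, 7 weeks, 7 against 3 weeks. Against type I HC markers 7 of the 9 gene ratios passed, and those of Atp2b2 (0.55), Atp2b3 (1.25), Ocm (1.05) and Calb2 (0.53) turned positive. All of these markers fell at both times, so a gene with an unchanged level has a higher ratio to them. With the covariate, Slc8a1 was -0.31 at 3 weeks and 0.11 between the IDPN groups. In the libraries with more genes it was -0.68 and 0.36, Calb1 was -0.78 and 0.28, and Atp2b2 was 0.081 between the IDPN groups. There the ratios of Atp2b1 to Calb1 (0.22), Atp2b2 to Calb2 (-0.12), Atp2b3 to Pvalb (0.10) and Atp2b3 to HC markers (0.11) also changed sign. The causes were not tested. Leaving out a library turned the sign of small values: Slc8a1 at 3 weeks (-0.18 to 0.36), the 7 against 3 week values of Atp2b2 (-0.094 to 0.033), Atp2b4 (-0.11 to 0.16) and Calb2 (-0.18 to 0.46), and the ratios Atp2b1 to Calb1 (-0.30 to 0.16), Atp2b2 to Calb2 (-0.094 to 0.14), Atp2b3 to Pvalb (-0.32 to 0.21), Atp2b3 to Ocm (-0.027 to 0.56), Atp2b3 to HC markers (-0.40 to 0.35) and Pvalb to HC markers (-0.084 to 0.13). Without a Control library the ratio test cannot reach 0.05.

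Over all genes, edgeR called 256 at 3 weeks, 796 at 7 weeks and 75 between the IDPN groups, against 743, 1317 and 524 with DESeq2 and 118, 1249 and 46 with 2 groups only. The 3 counts were 159, 480 and 56 at a fold change above 2, and 219, 1563 and 54 in the libraries with more genes. At least 10 counts gave 123 and the covariate 37 between the IDPN groups. With a library left out the counts were 75 to 439, 432 to 969 and 39 to 445. No paired analysis was possible because the labels give no replicate numbers, and the code in the sample names is shared by 1 rat of IDPN-3wk and 1 of IDPN-7wk and by no Control rat. With 3 rats per group, the 95% intervals of Atp2b3 at both times and of Calb1 at 7 weeks included a change of the size of Atp2b2.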
